A study of Homo sapiens with 7 samples.

Results

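The somatostatin system comprises the peptide genes SST and CORT and the receptor genes SSTR1, SSTR2, SSTR3, SSTR4 and SSTR5, and its RNA was examined in RH30 cells, an established line of alveolar rhabdomyosarcoma (RMS). These 7 genes were chosen as a family because SSTR2 was among the genes with the strongest response to the Smac mimetic BV6 in these same samples, and all 7 were found by symbol among the 57189 genes counted. RNAseq counts were used from 4 untreated samples and from 3 samples that received BV6 at 5 µM over 24 h. The cells are labeled as wild-type RH30, while the methods of the study state that GFP/luciferase-expressing RH30 cells were used throughout. The sample titles carry codes whose meaning is not spelled out and which were taken here as experiments. By these codes an untreated partner exists for BV6 replicates 2, 3 and 4, and untreated replicate 1 stands alone. BV6 mimics Smac, the mitochondrial antagonist of inhibitor of apoptosis proteins, and the comparison asks which genes change their RNA level upon this treatment. It covers 1 cell line, 1 dose and 1 time point, without a vehicle label on the untreated samples.

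Somatostatin and cortistatin are short peptides that inhibit the secretion of other hormones and the activity of neurons. Their receptors are G protein-coupled receptors that act through inhibitory G proteins, which lower cAMP, open inwardly rectifying potassium channels, close calcium channels and recruit tyrosine phosphatases. SSTR2 is best known from neuroendocrine tumors, where it is the main target of octreotide-like drugs and of radiolabeled somatostatin analogs. Skeletal muscle and its tumors are not a classical site of this system.

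SSTR2 lies on the plus strand of chromosome 17 (GRCh38, 73165010 to 73176633), and its annotated exons form 3 blocks. The 250 bases before its start site are shown because SSTR2 is the member whose RNA moved, and those before the start site of SST, on the minus strand of chromosome 3, because they hold the cAMP response element (CRE) that was first described in this gene. Both are from RefSeq (GRCh38.p14), written 5′ to 3′ on the strand of the gene, at chr17:73164760-73165009 and chr3:187670395-187670644. Capitals mark the CRE, TGACGTCA, and its core, TGACG, on either strand.
SSTR2: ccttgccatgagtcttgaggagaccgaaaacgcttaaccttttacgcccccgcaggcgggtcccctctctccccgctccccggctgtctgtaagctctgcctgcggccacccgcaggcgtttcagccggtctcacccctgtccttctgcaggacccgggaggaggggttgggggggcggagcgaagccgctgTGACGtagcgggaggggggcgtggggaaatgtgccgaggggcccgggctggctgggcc
SST: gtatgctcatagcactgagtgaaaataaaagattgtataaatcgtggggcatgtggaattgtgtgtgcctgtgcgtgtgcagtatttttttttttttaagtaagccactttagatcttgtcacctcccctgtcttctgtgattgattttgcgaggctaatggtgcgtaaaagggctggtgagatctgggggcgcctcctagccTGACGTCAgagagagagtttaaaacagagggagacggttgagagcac
The full CRE begins at base -47 of SST, counted back from the start site, and contains the core on both strands. The SSTR2 sequence has the core alone, beginning at base -58. Both strands of all 35116 RefSeq promoter windows, each of 250 bases before and 50 after a start site, were searched for these letters. The full CRE was found in 1.85% of the windows and the core in 24.6%, so the core in SSTR2 is a common match. The κB consensus, the site class bound by NF-κB, matched 11.3% of all windows and, of the members, the window of SSTR4 alone. A GC box (GGGCGG, either strand, 45.0% of windows) was found for SSTR2, SSTR3 and SSTR4, and the AP-1 site (TGANTCA, 7.71% of windows) for none of the members. Windows of all 7 members were matched by symbol, with 2 windows for SSTR3. The SSTR2 window had a GC content of 70%, that of SST 48% and that of SSTR1 44.7%. A match of letters is a description and not evidence of binding.

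Each sample held between 54070030 and 77220882 counts. All of these totals were above the highest number of sequencing reads per library that the study states. Levels are given as CPM, the counts scaled to a common library size after TMM normalization in edgeR, and the smallest number taken as detected, 3 counts, corresponds to 0.0389 to 0.0557 CPM. This floor covers counting error only, as PCR copies cannot be told apart. In every library more genes had 2 counts (3211 to 3389) than 1 count (1765 to 2235), so both mates of a read pair may have been counted, and low values then stand for fewer fragments than their number. The RMS markers MYOG and DES were at 150 ± 53.8 and 768 ± 114 CPM (SD, n = 4) in untreated cells. The leukocyte gene PTPRC lay between 0.204 and 0.801 CPM in all samples. The 12 leukocyte and NK markers summed to 25.3 to 43.4 CPM in untreated and 12.0 to 35.8 CPM in BV6 samples, and none was at 0 in every sample. None of the 7 tested was called, with 2 log2 fold changes above 0 and 5 below. They ranged from -0.95 (CD3E) to 0.30 with a median of -0.41, NKG7 having -0.52. The 12 RMS markers summed to 2092 to 3001 CPM in untreated and 1264 to 2351 CPM in BV6 samples, with 11 tested and none called. Of these 11, 10 had a log2 fold change below 0 and 3 an unadjusted p below 0.05, with a median of -0.44 against -0.014 over all tested genes, CHRNG having a log2 fold change of -0.99 and CHRNA1 of -0.27. Their part in the results was not tested.

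SST, the gene of somatostatin (chromosome 3, 187668912 to 187670394), was at or under the floor in all samples. It had 1, 2, 3 and 3 counts in untreated replicates 1 to 4 and 0, 0 and 2 counts in BV6 replicates 2 to 4. No fold change is given, as neither group rose above the 3 counts that a count of 0 allows.

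CORT, the gene of cortistatin (chromosome 1, 10450031 to 10451998), had 63, 68, 30 and 25 counts in untreated replicates 1 to 4 and 54, 25 and 39 counts in BV6 replicates 2 to 4. The groups overlapped, and the values in experiment 2 were high in both the untreated and the BV6 sample. The level was 0.733 ± 0.365 CPM (SD, n = 4) without and 0.698 ± 0.278 CPM (SD, n = 3) with BV6, a log2 fold change of -0.07 (standard error, SE, 0.433). CORT was lower with BV6 in experiments 2 and 3, with ratios of 0.794 and 0.819, and higher in experiment 4, with a ratio of 1.79. Of the exonic bases of CORT, 68.1% also belong to the read-through gene CENPS-CORT on the same strand, which had 373 to 529 counts per sample. How the authors' counting assigned reads of the shared part is not stated, so the count of CORT is uncertain.

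SSTR2 was the member whose RNA rose. Its counts were 112, 62, 104 and 136 in untreated replicates 1 to 4 and 977, 1107 and 1126 in BV6 replicates 2 to 4. These correspond to 1.45, 1.10, 1.73 and 2.20 CPM without BV6 and to 17.4, 18.1 and 20.9 CPM with it. All BV6 samples lay far above all untreated samples, and the BV6 samples lay close together. The log2 fold change was 3.53 (standard error 0.225), or 11.6-fold, a value that chose the family and is given as a description without a test. Within experiments 2, 3 and 4 the level was 15.8, 10.5 and 9.51 times that of the untreated partner, a mean log2 ratio of 3.54 ± 0.387 (SD, n = 3). Experiment 2 had the lowest untreated and the lowest BV6 level, and the order of the experiments was the same in both groups. Across the 4 untreated samples the SD of log2 CPM was 0.41, against a median of 0.23 over all tested genes, whereas across the BV6 samples it was 0.14, against a median of 0.26. In these bulk samples, more cells carrying the transcript and more transcript per cell cannot be told apart. Of the exonic bases of SSTR2, 279 (3.55%) are shared with an unnamed lncRNA on the same strand, ENSG00000264860, which was not matched to a counted gene.

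**Figure D1:**
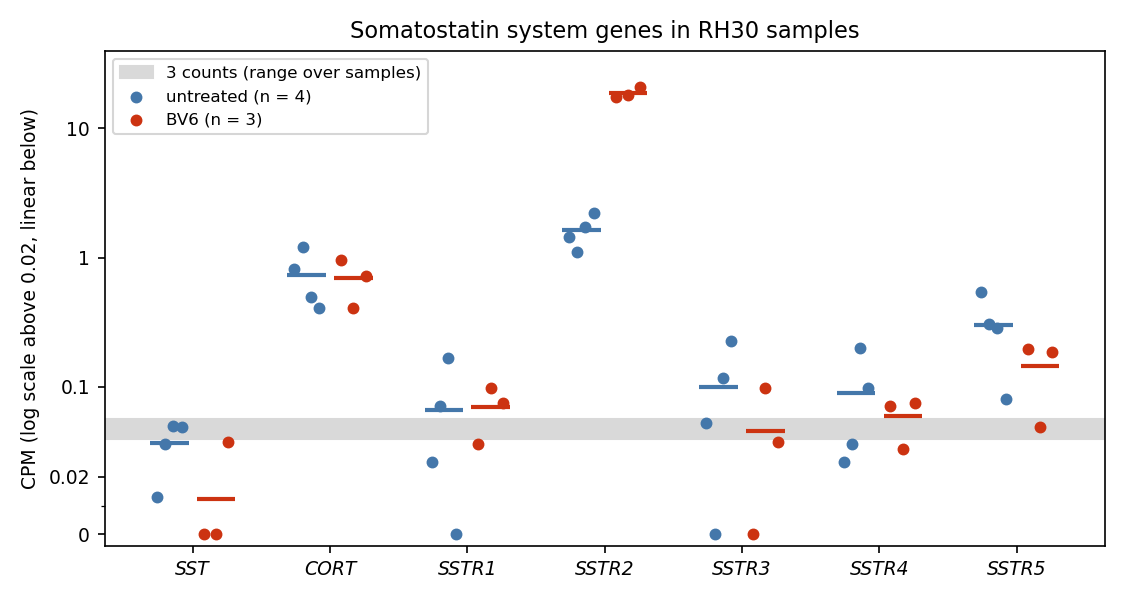
CPM of the 7 genes in every sample (points), with the group mean (bars), on an axis that is logarithmic above 0.02 and linear below, and the range of 3 counts in gray. SSTR2 is separated between the groups, at up to 2.20 CPM in untreated and from 17.4 CPM in BV6 samples, while the groups overlap for the other 6 genes.

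**Figure D2:**
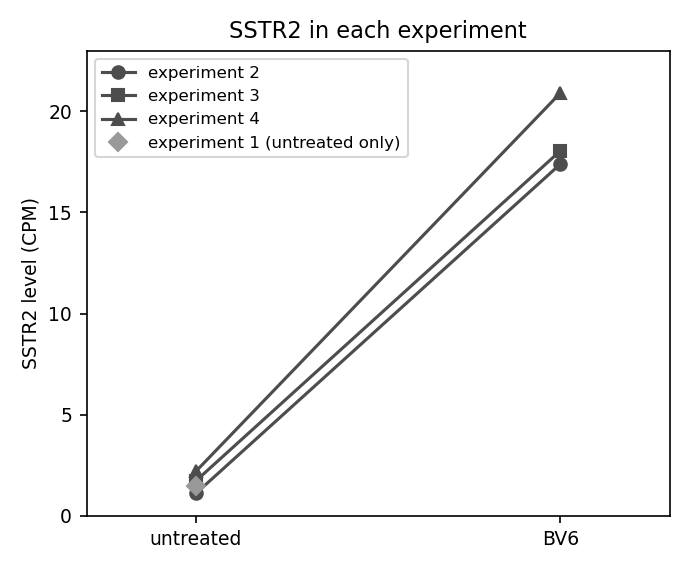
SSTR2 level in CPM on a linear axis in untreated and BV6 samples, with lines joining samples of the same experiment. The level rose 9.51- to 15.8-fold in the 3 experiments with both samples, and the untreated sample without a partner lies among the other untreated samples.

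The remaining receptors were at the limit of detection. SSTR1 (chromosome 14, 38207904 to 38213067) had 2, 4, 10 and 0 counts in untreated replicates 1 to 4 and 2, 6 and 4 counts with BV6. SSTR3 (chromosome 22, 37204237 to 37212477) had 4, 0, 7 and 14 counts without and 0, 6 and 2 counts with BV6. SSTR4 (chromosome 20, 23035312 to 23039237) had 2, 2, 12 and 6 counts without and 4, 2 and 4 counts with BV6. For these genes the groups overlapped, and 3 of the 7 counts of each gene were at or under the floor, so a difference was not detectable at this depth. All 7 counts of SSTR1, all 7 of SSTR4 and 6 of the 7 of SSTR3 were even numbers, with 0 taken as even, so that 2 counts may be a single fragment. Of the 7 counts of each other member, 5 were even for SSTR2, 4 for SST, 3 for CORT and 2 for SSTR5. SSTR4 shares 10.5% of its exonic bases with an unnamed lncRNA on the same strand.

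SSTR5 (chromosome 16, 1072747 to 1081454) had 42, 17, 17 and 5 counts in untreated replicates 1 to 4 and 11, 3 and 10 counts in BV6 replicates 2 to 4. The highest values were in untreated samples, but the groups overlapped, since untreated replicate 4 had fewer counts than BV6 replicates 2 and 4. The level was 0.303 ± 0.190 CPM (SD, n = 4) without and 0.144 ± 0.0821 CPM (SD, n = 3) with BV6, a log2 fold change of -1.10 (standard error 0.659). It was lower with BV6 in experiments 2 and 3 and 2.30 times higher in experiment 4. With the experiment as a block, the log2 fold change was -0.61 (standard error 0.67). The antisense gene SSTR5-AS1, which overlaps the body of SSTR5 without sharing exonic bases, had 27, 12, 20 and 6 counts without and 8, 1 and 5 counts with BV6. By this annotation, reads within exons of the pair are separated by position. The authors counted on another annotation release, and the paper does not state whether counting used strand.

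By the filter on low counts, SSTR2, SSTR5 and CORT entered the fit across all genes, and SST, SSTR1, SSTR3 and SSTR4 did not. Of these 3 members, 1 (SSTR2) was called at an adjusted p below 0.05 by edgeR's quasi-likelihood test, where 0.45% of the 23124 tested genes were called (0.394% higher and 0.0562% lower with BV6). With the experiment as a replicate block 0.943% were called (0.649% higher and 0.294% lower), and of the members again SSTR2. The groups did not overlap in CPM for SSTR2 alone of the 7 members, and for 8.83% of all tested genes (4.94% higher and 3.89% lower). The family was chosen on this contrast, so these counts carry no weight of their own. SSTR2 ranked 14 among all tested genes by its log2 fold change.

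Levels of different genes were compared per length, as CPM per kilobase of annotated exons. In untreated cells, CORT was highest at 0.802 ± 0.399 CPM per kb (SD, n = 4), followed by SSTR2 at 0.206 ± 0.0588 and SSTR5 at 0.112 ± 0.0703 CPM per kb. The place of CORT is uncertain, as 68.1% of its exonic bases also belong to CENPS-CORT and the assignment of shared reads is not stated. SSTR2 (0.141 to 0.280) and SSTR5 (0.0299 to 0.202) overlapped on this scale, while the lowest sample of CORT (0.442) was above the highest of SSTR2. SST, SSTR4, SSTR3 and SSTR1 followed at 0.0605, 0.0228, 0.0211 and 0.0150 CPM per kb, with overlapping samples. In BV6-treated cells, SSTR2 was highest at 2.39 ± 0.238 CPM per kb (SD, n = 3), above CORT at 0.764 ± 0.304, and their samples did not overlap. SSTR5 was next at 0.0531 ± 0.0303 CPM per kb. Among 17460 tested genes with a known length, the level of SSTR2 moved from above 14% of the genes in untreated cells to above 42.1% with BV6, where the median gene had 3.47 CPM per kb.

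SSTR2 accounted for 69.1%, 72.9%, 69.3% and 84.5% of the counts of the 5 receptor genes in untreated replicates 1 to 4. In BV6 replicates 2 to 4 it accounted for 98.3%, 98.5% and 98.3%. The exact 95% binomial (Clopper-Pearson) intervals ranged over 61.3 to 89.7% in untreated samples and over 97.3 to 99.1% in BV6 samples. They cover counting error only, and are too narrow for it if both mates of a pair were counted. The share contains the SSTR2 counts on which the family was chosen. Its rise with BV6 is therefore a description and not a separate result. Per length, the share of SSTR2 was 45.1 to 73.1% without and 95.7 to 97.1% with BV6. The other 4 receptors together had 0.404 to 0.763 CPM in untreated and 0.277 to 0.371 CPM in BV6 samples.

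**Figure D3:**
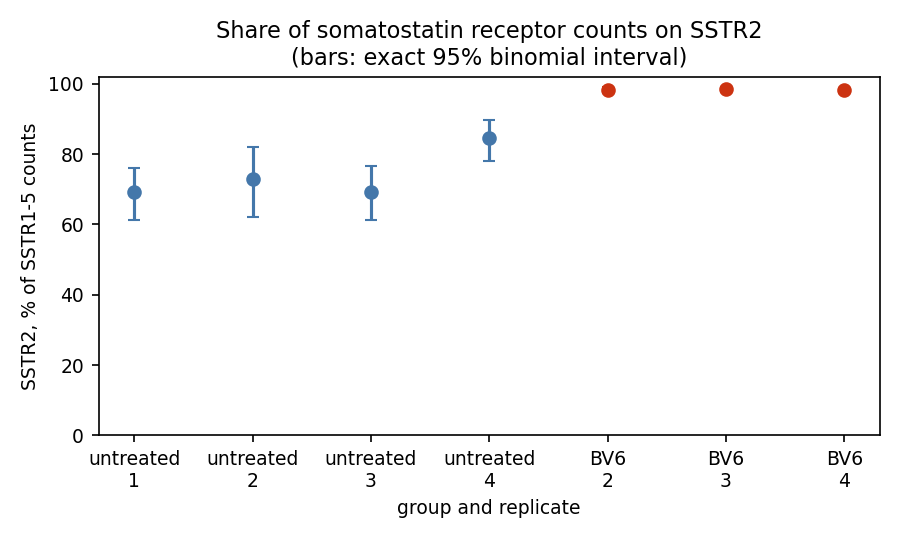
Percentage of SSTR1 to SSTR5 counts that came from SSTR2 in each sample, with exact 95% binomial intervals. The untreated samples lie between 69.1 and 84.5% and the BV6 samples between 98.3 and 98.5%. The share contains the SSTR2 counts on which the family was chosen.

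The genes around SSTR2 did not share its change in size. Within 200 kb, 5 protein-coding genes were annotated, all of them tested and none called at an adjusted p below 0.05 by edgeR. COG1, a subunit of a Golgi tethering complex whose start lies 28.0 kb downstream, had a log2 fold change of 0.13 (SE 0.091, edgeR adjusted p = 0.744). For C17orf80 and FAM104A it was 0.22 and 0.03, and for CPSF4L 0.34. CDC42EP4, an effector of the small GTPase CDC42 at 147 kb, had 31.2, 21.6, 21.4 and 21.8 CPM in untreated replicates 1 to 4 and 43.4, 25.2 and 36.9 CPM with BV6. Its log2 fold change was 0.55 (SE 0.206, edgeR adjusted p = 0.502). It was higher with BV6 in every experiment with both samples, but untreated replicate 1 lay above BV6 replicate 3. All 5 fitted values were above 0, where the median over all tested genes was -0.014. Of the 5, 1 had an unadjusted p below 0.05 by edgeR. The groups did not overlap for 1 of them (higher with BV6), as for 4.94% of all tested genes. Their summed level was 247 to 260 CPM in untreated and 274 to 297 CPM in BV6 samples.

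**Figure D4:**
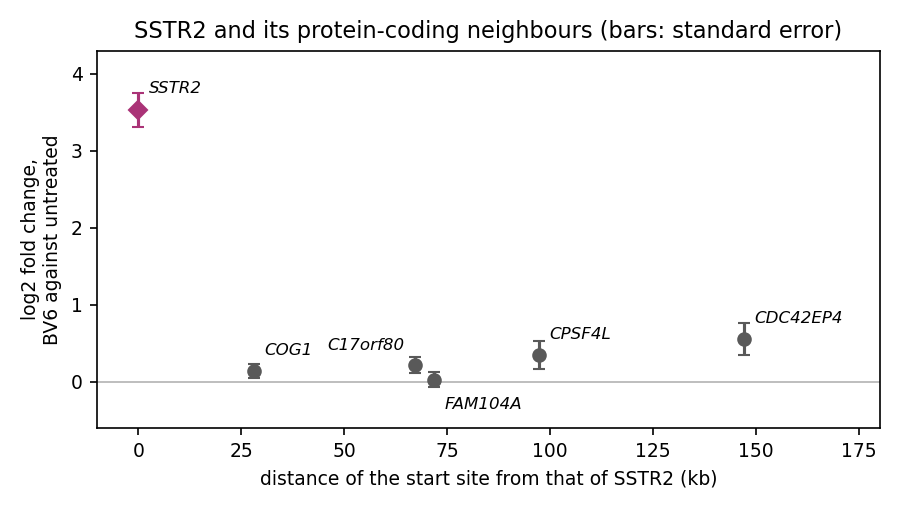
log2 fold change of SSTR2 and of the 5 protein-coding genes within 200 kb, with standard errors, against the distance of their start sites from that of SSTR2. The neighbors lie between 0.03 and 0.55, SSTR2 at 3.53.

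The level of the genes that act with the receptors was followed in 10 lists covering 128 genes, of which 103 were tested. By edgeR's quasi-likelihood test, 1 of the 103 was called (lower with BV6), against the 0.45% called over all tested genes. An unadjusted p below 0.05 was found for 5 of the 103 and for 1939 of the 23124 tested genes, a smaller share in the lists than over all genes. The fitted value was above 0 for 37 and below 0 for 66 of them, with a median log2 fold change of -0.05 against -0.014 over all tested genes. With the replicate block 2 of the 103 were called, both lower with BV6. Over all tested genes that fit called 0.943%, and 0.294% as lower.

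Among peptide receptors related to the somatostatin receptors, 4 of 15 were tested, all 4 had log2 fold changes below 0 (-0.60 to -0.12), and none was called. OPRD1, the δ opioid receptor, had the highest level of these per length. Its level was 41.2, 30.3, 38.5 and 39.3 CPM in untreated replicates 1 to 4 and 29.2, 27.1 and 34.3 CPM with BV6. The log2 fold change of OPRD1 was -0.31 (SE 0.143, edgeR adjusted p = 0.617), and the groups overlapped. Per length, OPRD1 was at 4.01 ± 0.518 CPM per kb (SD, n = 4) without and 3.24 ± 0.399 CPM per kb (SD, n = 3) with BV6, and SSTR2 was below it in both groups, with a highest BV6 sample of 2.66 against a lowest of 2.90 for OPRD1. OPRL1, the nociceptin receptor, had a log2 fold change of -0.60 (SE 0.423, edgeR adjusted p = 0.748). GHSR and MRGPRX2, which also bind cortistatin, had at most 5 counts in any sample.

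All 5 genes of inhibitory G protein α subunits were tested. GNAI3, with the highest level per length of exon union (with the longest transcript GNAI2 was higher), was at 295 ± 22.4 CPM (SD, n = 4) without and 320.0 ± 28.9 CPM (SD, n = 3) with BV6 (log2 fold change 0.12, SE 0.106, edgeR adjusted p = 0.793). GNAZ, the gene of a pertussis toxin-insensitive member (chromosome 22, 23070519 to 23125032), had 56.1, 30.7, 53.9 and 50.5 CPM in untreated replicates 1 to 4 and 15.4, 22.7 and 34.2 CPM in BV6 replicates 2 to 4. It was lower with BV6 in each of the 3 experiments, but untreated replicate 2 lay below BV6 replicate 4. Its log2 fold change of -0.99 (standard error 0.283) was not called (adjusted p = 0.282), whereas with the replicate block it was -0.93 and called (adjusted p = 0.0307, both edgeR). It shares 7.45% of its exonic bases with RSPH14 on the opposite strand. GNAO1, the neuronal form, had a log2 fold change of -0.20 (adjusted p = 0.791, edgeR).

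Of 15 β and γ subunit genes 13 were tested, and none was called, with log2 fold changes between -0.66 and 0.18. GNG10, with the highest level per length of exon union (with the longest transcript GNB1 was higher), was at 120 ± 14.6 CPM (SD, n = 4) without and 123 ± 0.402 CPM (SD, n = 3) with BV6. GNG11 and GNG12, with the smallest unadjusted p of the list, had log2 fold changes of -0.29 and 0.18. The 9 adenylyl cyclases, the enzymes that the receptors inhibit, were all tested and none was called. ADCY7 and ADCY3 had log2 fold changes of -0.45 and -0.20. Of 17 cAMP targets, all were tested and none was called. PRKACA, a catalytic subunit of protein kinase A, had 161 ± 11.2 CPM (SD, n = 4) without and 130.0 ± 13 CPM (SD, n = 3) with BV6 (log2 fold change -0.31, edgeR adjusted p = 0.455), and its groups did not overlap. CREB1, the factor that binds the CRE, had a log2 fold change of 0.23 (adjusted p = 0.617, edgeR), also without overlap. Of the 103 tested genes of all lists, 2 were higher and 3 lower in all BV6 samples. Over all tested genes these shares were 4.94% and 3.89%.

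Among 8 ion channels, 5 were tested and none was called. CACNA1D and CACNA1A, subunits of voltage-gated calcium channels, had log2 fold changes of -0.64 and 0.39. All 12 tyrosine phosphatase and kinase effector genes were tested without a call. PTPRJ, a receptor phosphatase, had a log2 fold change of 0.36 (adjusted p = 0.707) and PIK3R1, the regulatory subunit of phosphoinositide 3-kinase, of 0.27 (adjusted p = 0.624, both edgeR).

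The gene called was in the list of desensitization and trafficking, of which 17 of 21 genes were tested. SHANK2, a postsynaptic scaffold protein known to bind the tail of SSTR2 (chromosome 11, 70467854 to 71252577), had 76.6, 80.1, 81.4 and 79.2 CPM in untreated replicates 1 to 4 and 46.6, 46.3 and 55.1 CPM in BV6 replicates 2 to 4. All BV6 samples were below all untreated samples, which differed little among themselves. The log2 fold change of SHANK2 was -0.68 (SE 0.105, edgeR adjusted p = 0.0269), and -0.71 with the replicate block (adjusted p = 0.0227, edgeR). Leaving out the samples one by one kept its direction, with log2 fold changes of -0.77 to -0.64, but it was then called in 1 of 7 fits, the one without BV6 replicate 4 (edgeR adjusted p between 0.0414 and 0.125). GRK6, a receptor kinase, had a log2 fold change of -0.52 (SE 0.214, edgeR adjusted p = 0.559).

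**Figure D5:**
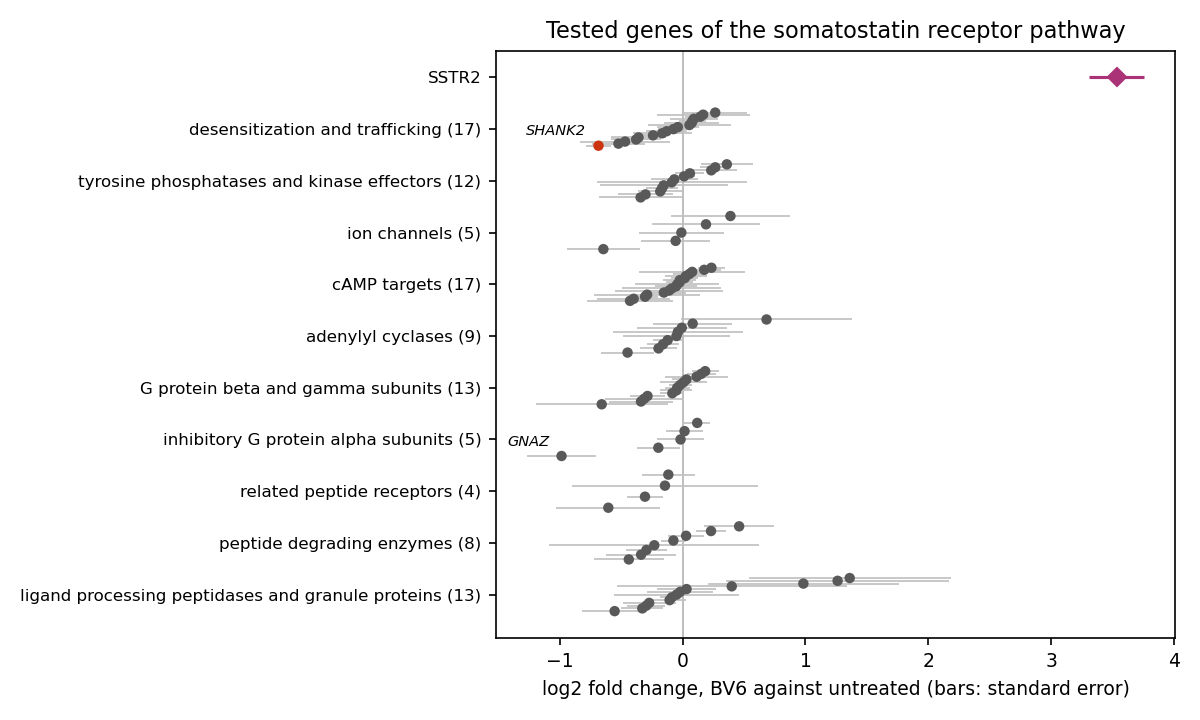
log2 fold change upon BV6 of the 103 tested pathway genes by list (points, with standard errors as bars and the number tested in parentheses) and of SSTR2 for comparison. SHANK2 at -0.68 (red) is the gene called, and SSTR2 lies at 3.53, outside the range of the lists (-0.99 to 1.36). GNAZ at -0.99 is not called in this fit. It is called with the replicate block, without a filter on low counts and with the DESeq2 Wald test.

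On the ligand side, 13 of 16 genes of processing peptidases and granule proteins and 8 of 10 peptide-degrading enzymes were tested, and none was called. FURIN and PCSK7, proprotein convertases, had log2 fold changes of -0.55 and -0.33. Neurolysin (NLN) and ECE1, which cleave neuropeptides, had values of 0.23 and -0.29. The granule protein CHGA, a marker of neuroendocrine cells, had 6, 4, 126 and 143 counts in untreated replicates 1 to 4 and 156, 142 and 165 counts in BV6 replicates 2 to 4. Untreated replicates 1 and 2 were near the floor and all other samples at a similar level, so that within experiments 3 and 4 the untreated and BV6 samples differed little, while in experiment 2 they differed widely. In CPM the groups of CHGA did not overlap, but the highest untreated sample (2.31) was next to the lowest BV6 sample (2.32). CHGB followed with 2, 2, 26 and 50 counts without and 55, 45 and 42 counts with BV6. Their log2 fold changes of 1.26 and 1.36 had standard errors of 0.907 and 0.823 and were not called (adjusted p = 0.754 and 0.714, edgeR). SYP, another such marker, had a log2 fold change of 0.54 (adjusted p = 0.591, edgeR), and of the 10 neuroendocrine markers 5 were tested and none was called. Of these 5, 4 had a log2 fold change above 0 and 1 below. Their median was 0.54 against -0.014 over all tested genes, and 1 had an unadjusted p below 0.05 by edgeR. SSTR2 was also lower in untreated replicates 1 and 2 than in 3 and 4, but by less than the distance of any of them to the BV6 samples.

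The genes whose log2 CPM over the 7 samples was most like that of SSTR2 by Pearson's r were USP31, MIR497HG, PLA2G4C, RSAD2 and AC040977.2, with r of 0.996, 0.994, 0.993, 0.992 and 0.989. Spearman's rho for these genes was between 0.857 and 0.964. The samples form 2 groups, so these values mostly record the step between untreated and BV6 samples and are a description. The steps differed in size. RSAD2, an interferon-induced antiviral gene, had 0.0713 to 0.210 CPM without and 1.07 to 1.65 CPM with BV6. PLA2G4C, a cytosolic phospholipase A2, had 2.06 to 3.70 CPM without and 17.8 to 19.2 CPM with BV6, a log2 fold change of 2.86. USP31, a ubiquitin-specific protease, was at 38.9 ± 2.20 CPM (SD, n = 4) without and 65.0 ± 0.814 CPM (SD, n = 3) with BV6, a smaller step with a small spread. MIR497HG, the host gene of a microRNA cluster, went from 16.1 ± 1.68 to 39.4 ± 3.36 CPM, and 38.2% of its exonic bases overlap C17orf49 on the opposite strand. PLA2G4C and RSAD2 also share exonic bases with genes on the opposite strand, PLA2G4C-AS1 and CMPK2. Of these opposite-strand genes, C17orf49 and PLA2G4C-AS1 were among the genes called, and CMPK2 was not. USP31 shares 22.7% of its exonic bases with an unnamed lncRNA on the same strand, ENSG00000260566.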

How the data were processed

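Per the labels and the study's methods, the authors prepared strand-specific libraries of poly(A) RNA from RH30 cells, aligned the read pairs to GRCh38 by STAR 2.6.1d and assigned reads to Ensembl genes of release 95, merging all isoforms of a gene. The values the authors deposited are raw counts per gene without normalization. The counting program and its use of strand are not given in the sources used here.

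From these counts, 23124 genes passed filterByExpr (minimum count 10) and were fitted in R 4.3.3 with edgeR 4.0.16 (TMM, glmQLFit, glmQLFTest, condition only), with Benjamini-Hochberg adjustment over all of them. A gene was called at an adjusted p below 0.05. Log2 CPM used a prior count of 2. DESeq2 1.42.0 was an alternative. P-values measure the spread between these samples, which the study calls biological replicates. The replicate block used the code in the sample titles. Deviations from the group means of samples with the same code correlated across genes at 0.515, 0.322 and 0.197 in experiments 2, 3 and 4 over the 6 paired samples, and at 0.462, 0.438 and 0.0847 with untreated replicate 1 in the group mean. BV6 replicate 4 then correlated more with untreated replicate 1 (0.278) than with its own partner, so the data do not set the pair of experiment 4 apart from unpaired samples. The samples were treated as paired by the shared code, which no label explains. Coordinates, exon unions and overlaps are from GENCODE release 44 for the same build, to which 36327 of 57189 symbols matched.

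The members and the lists of pathway genes and markers were chosen with earlier results of these data known. Named genes were the members, called genes of each list or, with fewer than 2 called, those of smallest p, the highest receptor and G protein genes per length, the 5 genes most like SSTR2, genes within 200 kb of SSTR2, genes overlapping members, and MYOD1, MYOG, DES and PTPRC. CHGA was named after its values were seen, as were GHSR and MRGPRX2. The fits were also run on simulated counts, and the outcome is not reported here.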

Additional observations from a re-analysis of the deposited data

Results flagged for a closer look

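Of 52 named genes examined for 1 untreated sample standing apart from the other 3, 6 did so by Dixon's criterion, which chance gives for about 1 gene in 20. None of them was a somatostatin system gene. In untreated replicate 1, PTPRC had 0.753 CPM (58 counts) against 0.226 to 0.285 CPM in the others, MYOD1 had 474 CPM against 293 to 311 CPM, and CDC42EP4, a neighbor of SSTR2, had 31.2 CPM against 21.4 to 21.8 CPM. In untreated replicate 4, PLA2G4C had 3.70 CPM against 2.06 to 2.22 CPM and AC040977.2 had 5.43 CPM against 5.03 to 5.08 CPM, both being genes with a pattern like that of SSTR2, whose highest untreated value was in the same sample. PIK3R1 was lowest there, with 23.2 CPM against 26.3 to 26.8 CPM.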

How the results depend on the processing

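The log2 fold change of SSTR2 stayed between 3.39 and 3.71 over 15 alternatives, the same range as on leaving out each sample in turn, and was 3.52 with the replicate block. That of CORT ranged from -0.37 to 0.26 and changed sign, and that of SSTR5 from -1.41 to -0.61 in the 13 settings in which it was tested. The number of genes called was 104 in the edgeR fit used above (condition only), which is not a number of the study. It was 105 with RLE factors, 99 with at least 10 counts in every sample and 111 with counts halved and rounded up. It was 218 with the replicate block, 242 without a filter on low counts, 408 with the DESeq2 Wald test, 41 in the paired experiments only and 341 in these with the replicate block, and 38 to 89 with 1 sample left out. It was most reduced without untreated replicate 3 (38) and without untreated replicate 1 (41). Leaving out untreated replicate 1 is the same fit as the paired experiments only, and it enters the 15 alternatives under both names. It was also moved by over 1.5 times without untreated replicate 2 (65), untreated replicate 4 (44), BV6 replicate 2 (57) and BV6 replicate 4 (53). The number of pathway genes called, 1 as reported (SHANK2), was 2 (SHANK2 and GNAZ) with the replicate block, without a filter, with DESeq2 and in the paired experiments with the replicate block, 0 in the paired experiments without it, and 0 to 1 with 1 sample left out. The replicate block changed no other call among the named genes. With Spearman's rho, 20 genes reached the highest value of 1 with SSTR2, and 0 of the 5 genes named by Pearson's r were among them. Levels per length of the 7 members moved by less than the spread between samples with the longest transcript in place of the exon union, whereas GNB1 then moved from 44.3 to 115 CPM per kb in untreated samples and GNAI2 from 19.4 to 36.9. Depth limited SST, SSTR1, SSTR3 and SSTR4, whose counts were too low for a fold change.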
